A study of Caenorhabditis elegans with 12 samples.

Results

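The unc genes of C. elegans were taken as all genes in the deposited count tables with identifiers from WBGene00006741 to WBGene00006850, the block that holds the genes named for an uncoordinated movement phenotype. This gave 92 genes of 46760 listed, and the other 18 identifiers of the block were not analysed here. Of the 92, 91 carry an unc name and 1 is tln-1, which encodes talin. All 92 are annotated as protein-coding, and all 92 had enough counts to be tested, the lowest count of any of them in any H3K9me3 library being 18.

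The counts came from CUT&Tag of H3K9me3, a method in which a tagging transposase is held by an antibody at the marked chromatin and releases the DNA there as sequenced fragments. Germline nuclei were purified from 1-day-old adults grown at 20 °C, with 50000 nuclei per library, from the wild-type strain N2, from USC661 carrying hrde-1(tm1200) on chromosome III, and from FD53 carrying hrde-2/enri-3(qe20) on chromosome V. Each genotype had 3 H3K9me3 libraries, from triplicate collections of animals, and 1 control library named IgG in the labels, made without a primary antibody according to the methods. Cross-reaction of the antibody with H3K27me3 and H4K20me3 is stated by the study, and fragments from those marks cannot be told apart from H3K9me3 here. Both mutations were present throughout the animal, and each is represented by 1 strain.

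HRDE-1 is a nuclear Argonaute protein of the germline that is guided by small RNAs to nascent transcripts and brings about H3K9me3 there, and HRDE-2 is a partner that affects which small RNAs it carries. H3K9me3 is a mark of silenced chromatin. The unc genes are best known for their work outside the germline, and encode parts of the muscle sarcomere and its attachments, the machinery of synaptic vesicle release, transmitter enzymes, transporters and receptors, axon guidance receptors, ion channels, and the transcription factors that specify neurons.

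The exons of the unc genes were richer in G and C than those of protein-coding genes on the whole, with a median GC content of 42.3% (35.4% to 51.4%) against 40.6% for protein-coding genes, and H3K9me3 levels followed GC content, as described further on. The coding stretches below show this composition in 3 genes with high and 3 with low wild-type levels. Each is the 120-base window of the gene's longest annotated coding exon whose GC content is closest to that of all its exons, with G and C in capitals, read 5′ to 3′ on the gene's strand from the WBcel235 assembly. unc-52 lies at chrII:14663756-14663875 on the minus strand, unc-62 at chrV:4509879-4509998 on the plus strand and unc-31 at chrIV:12782824-12782943 on the plus strand. Of the low genes, unc-77 lies at chrIV:6162090-6162209 on the minus strand, unc-34 at chrV:990600-990719 on the plus strand and unc-36 at chrIII:8195162-8195281 on the minus strand. G and C make up 58 of the 120 bases shown for unc-52, 58 for unc-62 and 51 for unc-31, and 46 for unc-77, 47 for unc-34 and 43 for unc-36. The unc-34 stretch is coding in at least 1 annotated transcript, but not necessarily in all.
unc-52: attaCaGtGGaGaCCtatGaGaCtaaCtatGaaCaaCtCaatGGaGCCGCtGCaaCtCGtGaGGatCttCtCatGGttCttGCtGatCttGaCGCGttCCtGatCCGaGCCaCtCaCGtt
unc-62: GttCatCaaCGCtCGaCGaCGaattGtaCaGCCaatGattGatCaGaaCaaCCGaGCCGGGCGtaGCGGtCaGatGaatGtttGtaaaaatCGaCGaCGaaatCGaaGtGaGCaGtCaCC
unc-31: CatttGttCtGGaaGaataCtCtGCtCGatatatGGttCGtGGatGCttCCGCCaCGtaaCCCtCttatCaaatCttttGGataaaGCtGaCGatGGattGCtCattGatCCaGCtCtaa
unc-77: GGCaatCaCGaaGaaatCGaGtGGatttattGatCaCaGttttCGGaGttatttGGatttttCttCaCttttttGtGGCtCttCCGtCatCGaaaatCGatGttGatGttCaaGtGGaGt
unc-34: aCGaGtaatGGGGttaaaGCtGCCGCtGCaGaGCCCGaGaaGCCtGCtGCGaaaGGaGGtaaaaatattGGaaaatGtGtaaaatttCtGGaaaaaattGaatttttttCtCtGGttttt
unc-36: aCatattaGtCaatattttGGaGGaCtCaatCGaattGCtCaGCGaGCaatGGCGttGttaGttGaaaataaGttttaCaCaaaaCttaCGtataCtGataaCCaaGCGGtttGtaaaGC

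Total counts were 1470699 (wild-type replicate 2) to 8719542 in the H3K9me3 libraries and 13950 to 233980 in the IgG libraries. Genes for nuclear rRNA took 13.2% to 24.6% of the counts in the H3K9me3 libraries, the most in wild-type replicate 3. Levels below are counts per 1000000 counts of the library (CPM), scaled between libraries by the TMM method and divided by the length of exon in kilobases. They compare genes within these libraries only. In a bulk sample, fewer nuclei that carry the mark and less of the mark per nucleus cannot be told apart.

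The unc genes stood somewhat above other protein-coding genes in H3K9me3 level, as they also did in the wild-type IgG library (given further on). Their median wild-type level was 22.7 CPM per kb (quartiles 16.9 and 31.2), against 18.96 (13.03 and 28.2) for 17380 nuclear protein-coding genes with at least 500 bases of exon. Of the 92, 61 lay above the protein-coding median, 29 above the upper quartile and 15 below the lower quartile. The highest gene stood 10.99-fold above the lowest, while the 3 wild-type libraries differed for the median unc gene by a coefficient of variation of 10.2%. That coefficient was 7.39% for hrde-1 and 7.19% for hrde-2.

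Genes of the sarcomere and of muscle attachment had the highest median level of the groups by role. The 18 genes of this group had a median wild-type level of 31.1 CPM per kb and a median percentile of 79.8 among protein-coding genes. Their median exon GC content was 43.5%, with 5 of them on X. The transmitter genes described below had 38.7% and 0 on X, and the axon guidance genes 43.6% and 2 on X. The part of GC content, position and background in the differences between groups was not tested. unc-54 (chromosome I, 14855901 to 14863573), the major myosin heavy chain of body wall muscle, was the highest of all 92, with wild-type levels of 80.1, 76.5 and 107.5 CPM per kb. The hrde-1 libraries had 88.1, 86.7 and 82.9 and the hrde-2 libraries 65.8, 89.8 and 88.7, so that the genotypes overlapped. unc-52, which encodes perlecan of the muscle basement membrane, was the second highest at 67.7 ± 10.6 CPM per kb (SD, n = 3). unc-95, a LIM domain protein of dense bodies, followed after unc-62, unc-31 and unc-51 at 52.04 ± 2.29 (SD, n = 3), and tln-1, outside the group lists, had 50.9 ± 8.40 (SD, n = 3). The thick filament and giant proteins were intermediate. Paramyosin (unc-15) had 39.1 ± 6.87 CPM per kb, obscurin (unc-89) 32.4 ± 3.57 and twitchin (unc-22) 29.6 ± 3.03 (SD, n = 3). The ryanodine receptor gene unc-68, which encodes the calcium release channel of the sarcoplasmic reticulum, had 25.6 ± 1.00 (SD, n = 3). The exception at the low end was unc-94 (tropomodulin, which caps actin filaments), with 8.72 ± 2.33 CPM per kb (SD, n = 3), at a percentile of 8.45.

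Genes of transmitter synthesis, transport and reception had the lowest median level of the groups by role, and the spread within this group was wide. The median of its 9 genes was 11.9 CPM per kb, at a median percentile of 20.3. Within it, unc-49 (a GABA-A receptor) had 41.5 ± 5.83, unc-17 (the vesicular acetylcholine transporter) 36.3 ± 7.65 and unc-25 (glutamate decarboxylase) 29.8 ± 7.11 CPM per kb (SD, n = 3). The acetylcholine receptor subunit genes lay far lower, with 11.02 ± 4.13 at unc-29, 11.7 ± 1.11 at unc-38 and 9.20 ± 1.63 at unc-63 (SD, n = 3). The difference between these receptor genes and unc-49 was several times their spread between libraries. Exon GC content was 36.9% at unc-29, 37.6% at unc-38 and 37.5% at unc-63, against 45.1% at unc-49, and its part was not tested. Summed over genes, with rRNA and mitochondrial genes left out of the total, the transmitter group was not the lowest. It had 31.2 ± 2.93 CPM per kb in wild-type H3K9me3, and axonal transport had 21.8 ± 1.43 (SD, n = 3). The other groups by role had 28.6 to 44.7. In the wild-type IgG library the transmitter group had 21.3 (Wilson interval 16.2 to 28.0, 51 counts), the lowest of the groups. That interval overlapped the one of axonal transport (19.8 to 33.3).

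The 11 genes of the synaptic vesicle cycle had a median of 16.8 CPM per kb and covered a wide range. unc-31, the CAPS protein that promotes dense core vesicle release, was the fourth highest unc gene, with wild-type levels of 57.8, 53.7 and 51.8 CPM per kb. unc-11, the AP180 clathrin adaptor, had 8.49, 8.07 and 12.3. The core release genes lay between, with 23.2 ± 4.84 at unc-18 (Munc18), 17.3 ± 0.963 at unc-13 (Munc13) and 16.8 ± 3.11 CPM per kb at unc-64 (syntaxin) (SD, n = 3).

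Among 15 genes of axon guidance and the cytoskeleton, with a median of 23.7 CPM per kb, unc-51 (the ULK kinase of axon outgrowth and autophagy) had 54.4, 45.3 and 57.4 and unc-115 (an actin-binding abLIM protein) had 44.5, 50.5 and 48.8, the highest level of the unc genes on X. The netrin ligand gene unc-6 had 35.9 ± 6.11 CPM per kb, above both netrin receptor genes, unc-5 with 15.9 ± 2.20 and unc-40 with 14.99 ± 0.830 (SD, n = 3). The lowest of this group was unc-34 (Enabled), with 8.04, 6.32 and 13.1 CPM per kb. unc-119, a lipid-binding chaperone gene widely used as a transformation marker, had 18.03 ± 2.30 (SD, n = 3).

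The 10 transcription factor genes had a median of 21.2 CPM per kb. unc-62, a Meis homeodomain factor, had 59.7, 67.0 and 58.9, the third highest level of all 92. The homeodomain gene unc-30, which specifies GABA motor neurons, had 44.5 ± 6.69, and the EBF factor unc-3, which specifies cholinergic motor neurons, had 29.9 ± 3.85 CPM per kb (SD, n = 3). unc-4 (a homeodomain factor of motor neurons) had 19.6 ± 1.27 and unc-86 (a POU factor of touch receptor and other neurons) 18.2 ± 0.689 (SD, n = 3), and their libraries overlapped.

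The 13 ion channel and gap junction genes had a median of 25.0 CPM per kb, from 38.8 ± 2.01 at unc-80, a subunit of the NALCN sodium leak channel, to 8.01 ± 1.69 at unc-36, a calcium channel α2δ subunit and the lowest of all 92 (SD, n = 3). The channel-forming partner of unc-80, unc-77 (also known as nca-1, outside the group lists), lay near the bottom, with 10.2, 7.87 and 9.62 CPM per kb. The innexin genes unc-7 and unc-9, which form gap junctions together, had 25.0 ± 1.91 and 17.9 ± 2.20 (SD, n = 3). The 4 axonal transport genes spanned 12.3 to 20.8 CPM per kb, with 19.3 ± 1.62 at the kinesin gene unc-104 (KIF1A) and 20.8 ± 1.21 at the kinesin heavy chain gene unc-116 (SD, n = 3). The 5 genes of the nucleus, chromatin and cell division had 14.9 to 26.3, and the pair that links nuclei to the cytoskeleton, unc-83 (a KASH protein) and unc-84 (a SUN protein), had nearly the same level, 25.4 ± 1.87 and 25.1 ± 1.04 CPM per kb (SD, n = 3).

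Levels of the unc genes followed position. The 16 on X had a median wild-type level of 27.9 CPM per kb, and the 27 in the middle of the autosomes 19.4, when each autosome was cut into 3 equal lengths. The remaining 49, in the first or last of these lengths, are called outer here and had 25.0. All protein-coding genes had the same order, with 23.1, 21.1 and 15.2. The outer autosomal unc genes had the widest range, 9.16 to 88.0 CPM per kb. The range was 17.9 to 47.9 on X and 8.01 to 39.1 in the middle part, and no unc gene on X lay among the 15 below the lower quartile of protein-coding genes.

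**Figure D1:**
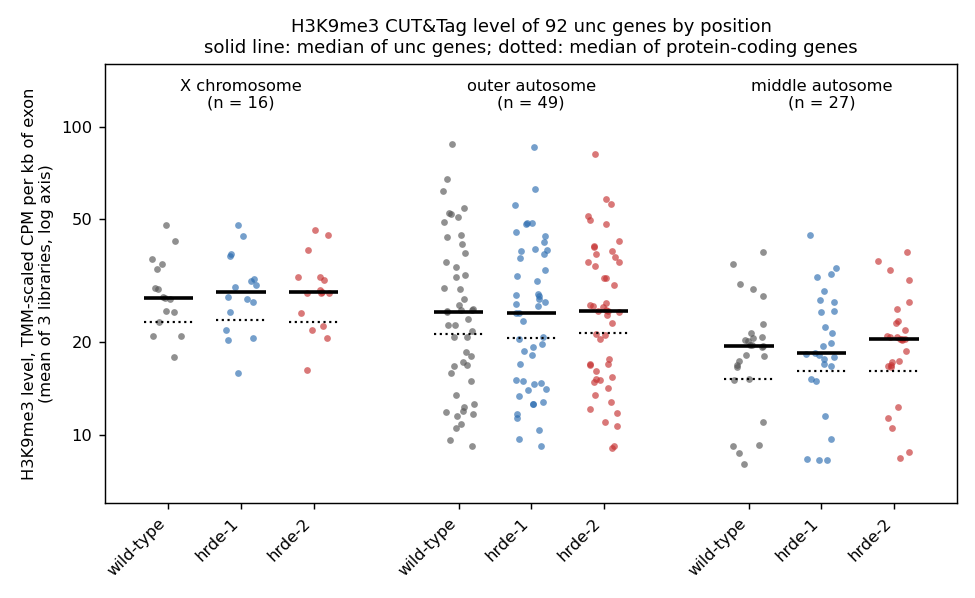
H3K9me3 level of each unc gene (TMM-scaled CPM per kb of exon, mean of 3 libraries, log axis) on X, in the outer and in the middle parts of the autosomes, for the 3 genotypes, with the median of the unc genes as a solid line and that of protein-coding genes as a dotted line. Solid lines lie above dotted lines in all 9 groups, and the wild-type medians are 27.9, 25.0 and 19.4.

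To compare X with the autosomes in each library, the log2 ratio of the median counts per kb was taken. In wild-type it was 0.39, 0.43 and 0.49 for the unc genes (mean 0.44 ± 0.046, SD, n = 3) and 0.38, 0.31 and 0.33 for protein-coding genes. The hrde-1 libraries had 0.46, 0.38 and 0.40, and the hrde-2 libraries 0.35, 0.44 and 0.48. The difference between hrde-1 and wild-type was -0.02 (p = 0.6, exact two-sided permutation test, 3 libraries against 3) and that between hrde-2 and wild-type was -0.014 (p = 0.8, the same test), where 0.1 is the smallest p this test can give. All 9 ratios were above 0, and the genotypes overlapped. The excess on X depended on how genes were weighted, since summed counts over summed exon length gave a wild-type log2 ratio of -0.0033 ± 0.080 (SD, n = 3) in place of 0.44, whereas protein-coding genes kept 0.29, 0.22 and 0.19 in the 3 wild-type libraries. The 5 unc genes with the most counts, unc-89, unc-22, unc-52, unc-44 and unc-54, are all autosomal, and their part in this difference was not tested. Against the outer autosomal unc genes alone the ratio was 0.19 ± 0.060, and against the middle ones 0.59 ± 0.053 (SD, n = 3). Among the 42 unc genes of 41% to 45% GC, 14 on X and 28 on autosomes, it was 0.41 ± 0.047 (SD, n = 3). The last 3 comparisons were chosen after the data were seen. In that subset the 3 hrde-1 libraries lay below the 3 wild-type libraries (0.28 ± 0.010 against 0.41 ± 0.047, SD, n = 3, difference -0.13, p = 0.1 in the exact permutation test, its smallest possible value). The 3 hrde-2 libraries overlapped wild-type there, with 0.35 ± 0.035 (SD, n = 3) and a difference of -0.055 (p = 0.2, exact permutation test).

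**Figure D2:**
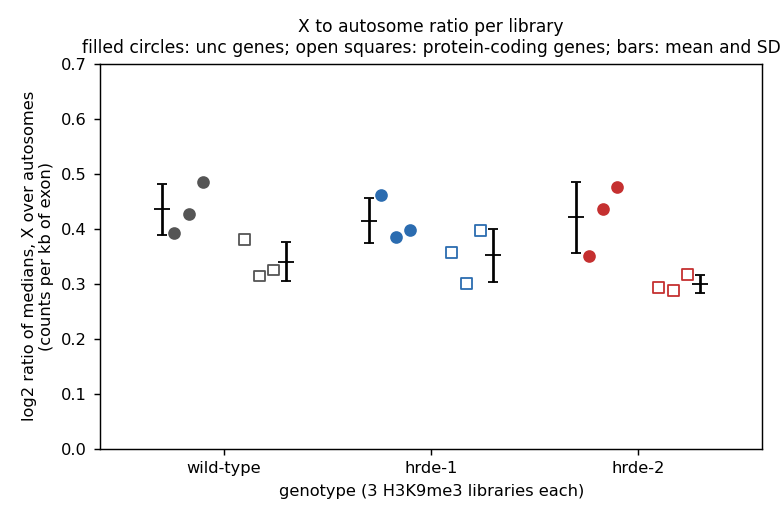
Log2 ratio of the median H3K9me3 counts per kb of exon on X to that on the autosomes, for each of the 9 libraries, with filled circles for the unc genes, open squares for protein-coding genes, and the mean and SD of 3 libraries beside them. The unc genes lie between 0.35 and 0.49 and the 3 genotypes overlap.

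Levels also followed the GC content of the exons. Over the 92 genes, Spearman's rho between GC content and wild-type level was 0.65 and Pearson's r with the log2 level was 0.70, given as a description because the genes share the same libraries, and the rho over 17380 protein-coding genes was 0.57. The rho was 0.67 over the 16 genes on X, 0.62 over the 49 outer and 0.59 over the 27 middle autosomal genes, and it lay between 0.60 and 0.69 in each of the 9 libraries. The 31 genes lowest in GC had a median of 16.8 CPM per kb, the 30 intermediate ones 22.9 and the 31 highest 32.4. The 31 lowest held 17 of the 27 middle autosomal genes and 1 gene on X, and the 31 highest held 24 of the 49 outer autosomal genes and 4 on X, so position and GC content moved together. Genes that departed from the relation included unc-50 and unc-11, low for their GC content of 45.2% and 43.3%, and unc-31 and unc-115, high for 42.4% and 42.7%. These 4 were picked after their values were seen. The rho of level with exon length was 0.19. The part of base composition in the assay itself was not tested.

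**Figure D3:**
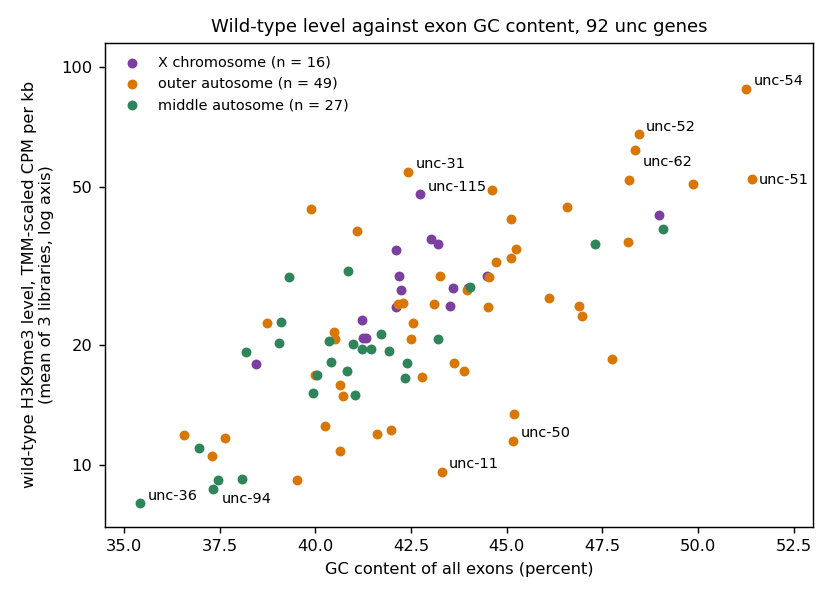
Wild-type H3K9me3 level (TMM-scaled CPM per kb of exon, mean of 3 libraries, log axis) against the GC content of all exons for the 92 unc genes, coloured by position. Levels rise from 8.01 at unc-36 (35.4% GC) to 88.0 at unc-54 (51.3% GC).

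The IgG libraries gave the background of the assay, with 1698 counts on the unc genes for wild-type, 374 for hrde-1 and 145 for hrde-2. Because rRNA and mitochondrial genes took a larger share of these libraries, values here are CPM with those genes left out of the total. The unc genes took 1.31%, 1.32% and 1.37% of such counts in the wild-type H3K9me3 libraries and 1.24% in the wild-type IgG library (Wilson 95% interval 1.18% to 1.30%). In hrde-1 mutants they took 1.35%, 1.34% and 1.34% against 1.43% (1.29% to 1.58%), and in hrde-2 mutants 1.31%, 1.33% and 1.34% against 1.41% (1.201% to 1.66%). The mutant H3K9me3 libraries thus lay within the interval of their IgG library, and wild-type lay slightly above it. With all genes in the total, the shares in the H3K9me3 libraries were higher, by a log2 ratio of 0.53 in wild-type, 0.093 in hrde-1 and 0.088 in hrde-2 mutants, and for both mutants the sign turned when rRNA and mitochondrial genes were left out.

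Gene by gene, H3K9me3 exceeded IgG at few unc genes. In wild-type, 10 unc genes had all 3 H3K9me3 values above the Wilson 95% interval of the IgG value, 16 had all 3 below it and 66 had neither. Among the 26 genes with at least 20 wild-type IgG counts, the ratio of H3K9me3 to IgG had a median of 0.885. It ran from 0.290 at unc-37 (the Groucho corepressor) to 1.84 at unc-31. That cut was set on the IgG counts, the denominator of the ratio, which favours low ratios, so the median describes these 26 only. Below the cut the ratios included 0.221 at unc-69 (15 IgG counts) and 5.25 at unc-75 (1 IgG count). unc-54 had a ratio of 1.77 on 53 IgG counts and unc-52 1.69 on 79, while unc-62, the third highest in H3K9me3, had 0.553 on 55 IgG counts. The IgG density at unc-62 was 138.5 CPM per kb (106 to 180.2), above its highest H3K9me3 level on the same scale, 83.9. unc-101 and unc-120 had 0 counts in the wild-type IgG library, which allows up to 21.9 CPM on this total (3 counts). The levels above therefore include a background that differs between genes. Over the 92 genes the IgG density correlated with the wild-type H3K9me3 level (rho 0.51) and with GC content (rho 0.40). Summed over genes, the X excess was larger in the wild-type IgG library, where 246 counts gave 42.4 CPM per kb on X (37.4 to 48.02) and 1452 counts gave 32.2 on autosomes (30.6 to 33.9), than in wild-type H3K9me3, with 35.9 ± 0.873 on X and 35.96 ± 1.15 on autosomes (SD, n = 3). Protein-coding genes had lower values in the wild-type IgG library, 32.1 CPM per kb on X (31.6 to 32.5) and 27.9 on autosomes (27.8 to 28.04). Intervals on single libraries cover counting error only.

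To determine whether H3K9me3 at the unc genes changed without HRDE-1 or HRDE-2, all genes were fitted together with edgeR and the unc genes were read from that fit. No unc gene passed an adjusted p of 0.05 in any comparison. In hrde-1 mutants against wild-type, 0 of 92 were called, where 0.76% of all 28691 genes were, and the lowest adjusted p was 0.18. In hrde-2 mutants 0 were called, where 0.495% of all genes were, with a lowest adjusted p of 0.134, and between hrde-2 and hrde-1 mutants 0 were called against 0.443%, with a lowest adjusted p of 0.672. DESeq2 also called 0 in each. The median log2 fold change of the 92 genes was 0.014 with hrde-1 and 0.044 with hrde-2, and all 92 of the 95% intervals lay within 1 of 0 on the log2 scale in both mutants. Within 0.5 of 0 lay 66 of the intervals in hrde-1 and 69 in hrde-2 mutants, so that for most unc genes changes beyond that size were outside the interval.

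At an unadjusted p under 0.05 there were 12 unc genes in hrde-1 mutants, 13.04% of the 92, where 11% of all genes did so. Of these 5 were higher (5.43%, against 4.65% of all genes) and 7 lower (7.61% against 6.36%). In hrde-2 mutants there were 11, or 11.96% against 9.3%, with 5 higher (5.43% against 4.16%) and 6 lower (6.52% against 5.14%). Between the mutants there were 2, unc-85 and unc-14, or 2.17% against 6.44% of all genes, with 1 higher (1.09% against 3.25%) and 1 lower (1.09% against 3.2%). The shares against wild-type were near the background of all genes, and that between the mutants was below it. Both mutants were set against the same 3 wild-type libraries, so a wild-type value that is high or low enters both comparisons. Levels of the 15 genes concerned are given below as values, since none passed the adjusted threshold.

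**Figure D4:**
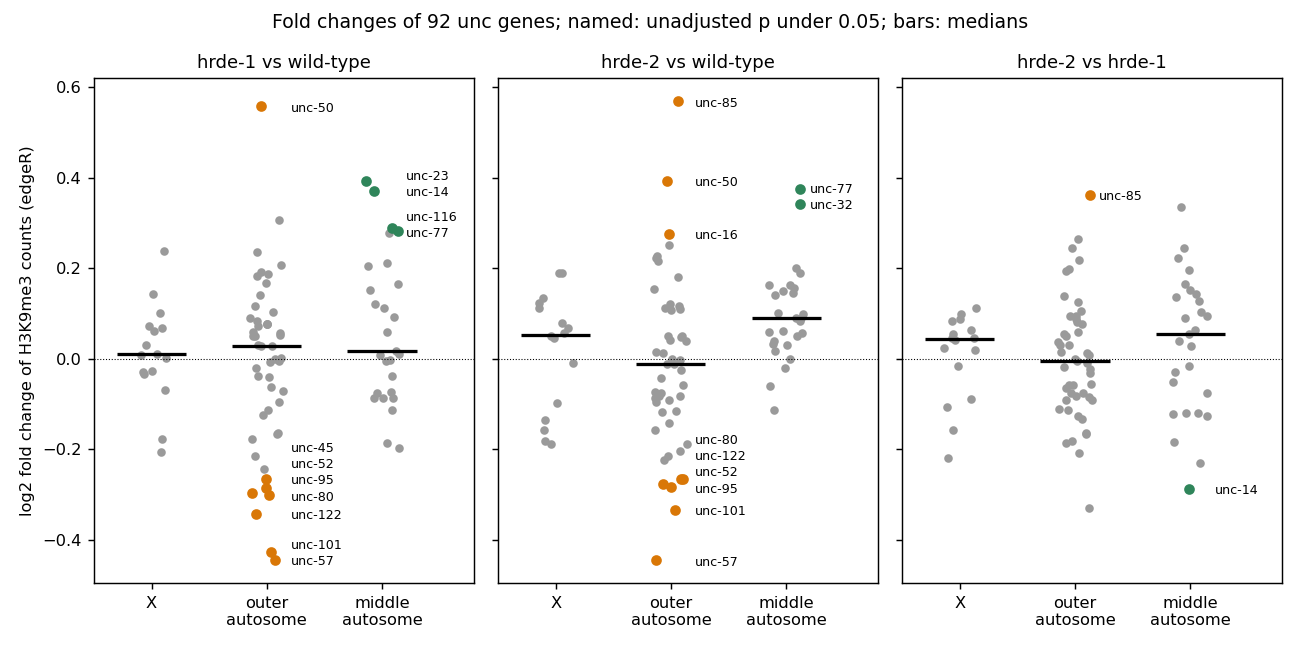
Log2 fold change (edgeR) of each of the 92 unc genes in the 3 comparisons, by position, with genes of unadjusted p under 0.05 coloured and named and the median of each group as a bar. The named genes with lower values are in the outer parts of the autosomes in both comparisons with wild-type, and no gene on X is named.

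The genes with lower values in the mutants included unc-52 and unc-95, of the 6 highest in wild-type. The same wild-type libraries entered that ranking and the fold changes. unc-54, unc-62, unc-31 and unc-51 did not reach an unadjusted edgeR p of 0.05 in either mutant. For unc-52 (chromosome II, 14647325 to 14666943) the wild-type libraries had 60.4, 62.7 and 79.8 CPM per kb, the hrde-1 libraries 57.7, 56.8 and 52.2 and the hrde-2 libraries 51.4, 58.7 and 57.7. The log2 fold change was -0.29 ± 0.12 in hrde-1 and -0.28 ± 0.12 in hrde-2 mutants (SE, edgeR adjusted p 0.345 and 0.459). Both mutants lay below wild-type without overlap, but wild-type replicate 3 stood apart, and without it the values were -0.14 and -0.14. unc-80 (chromosome V, 20879854 to 20898906) had 37.8, 37.5 and 41.1 CPM per kb in wild-type, 33.4, 31.9 and 29.3 in hrde-1 and 33.5, 31.5 and 32.0 in hrde-2 mutants, again without overlap. Its log2 fold changes were -0.30 ± 0.11 and -0.27 ± 0.11 (SE, edgeR adjusted p 0.243 and 0.412).

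unc-95 (chromosome I, 14381344 to 14384737) had 53.2, 53.5 and 49.4 CPM per kb in wild-type, against 42.3, 47.1 and 37.1 in hrde-1 and 40.1, 47.6 and 39.8 in hrde-2 mutants. unc-122 (chromosome I, 14872112 to 14875378), an olfactomedin-domain protein known as a marker of coelomocytes, had 45.1, 49.5 and 52.7 in wild-type, 36.9, 40.3 and 38.7 in hrde-1 and 39.8, 41.6 and 40.96 in hrde-2 mutants. In both genes every mutant library lay below every wild-type library. The log2 fold changes at unc-95 were -0.30 ± 0.13 and -0.28 ± 0.13, and at unc-122 -0.34 ± 0.12 and -0.27 ± 0.12 in hrde-1 and hrde-2 mutants (SE, edgeR adjusted p 0.209 to 0.504 over the 4 values).

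Of the vesicle cycle genes, unc-57 (endophilin; chromosome I, 4675135 to 4679409) had 11.8, 12.6 and 13.2 CPM per kb in wild-type, 7.47, 10.99 and 8.99 in hrde-1 and 7.97, 10.1 and 9.51 in hrde-2 mutants, the lowest log2 fold changes of all 92, -0.44 ± 0.19 and -0.45 ± 0.20 (SE, edgeR adjusted p 0.361 and 0.46). unc-101 (the µ subunit of the AP-1 clathrin adaptor; chromosome I, 12508299 to 12513419) had 18.1, 15.1 and 16.7 in wild-type, 12.2, 12.3 and 13.2 in hrde-1 and 10.9, 14.9 and 14.4 in hrde-2 mutants. Its log2 fold changes were -0.43 ± 0.16 and -0.33 ± 0.16 (SE, edgeR adjusted p 0.246 and 0.511), and without hrde-2 replicate 1 the second was -0.20. Mutant and wild-type libraries did not overlap at either gene. At unc-45, the myosin chaperone, wild-type had 18.003, 15.5 and 18.2 CPM per kb, hrde-1 mutants 13.7, 14.2 and 15.7 and hrde-2 mutants 14.2, 14.7 and 16.3, with overlap in both comparisons. Its log2 fold changes were -0.27 ± 0.13 and -0.22 ± 0.13 (SE, edgeR adjusted p 0.43 and 0.635).

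Of the genes with higher values, unc-85 (chromosome II, 4702069 to 4703219) encodes the histone chaperone ASF1, which acts in dividing cells. Its levels were 22.1, 34.7 and 22.1 CPM per kb in wild-type, 28.3, 26.1 and 30.3 in hrde-1 and 35.6, 35.6 and 37.7 in hrde-2 mutants. The hrde-2 libraries lay above all others. Against wild-type its log2 fold change, 0.57 ± 0.16 with an edgeR adjusted p of 0.134, was the highest of the 92 in that comparison, and without wild-type replicate 2 it was 0.72 with an adjusted p of 0.0249, the 1 setting in which an unc gene was called in hrde-2 mutants. Against hrde-1 mutants it was 0.36 ± 0.15 (SE, edgeR adjusted p 0.672).

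unc-50 (chromosome III, 10314490 to 10318162), a Golgi protein needed to assemble acetylcholine receptors, had 9.90, 11.5 and 13.2 CPM per kb in wild-type, 16.5, 15.8 and 18.6 in hrde-1 and 15.9, 17.1 and 12.4 in hrde-2 mutants. The hrde-1 libraries lay above wild-type, by 0.56 ± 0.19 on the log2 scale, and the hrde-2 libraries overlapped it, with 0.39 ± 0.19 (SE, edgeR adjusted p 0.196 and 0.53). unc-23 (a BAG family co-chaperone; chromosome V, 8936359 to 8939676) had 18.98, 18.7 and 23.98 in wild-type, 27.4, 27.4 and 27.6 in hrde-1 and 23.3, 23.0 and 23.9 in hrde-2 mutants. Its log2 fold change in hrde-1 mutants was 0.39 ± 0.13 (SE, edgeR adjusted p 0.18), and without wild-type replicate 3 it was 0.54 with an adjusted p of 0.0486, the 1 setting in which an unc gene was called in that comparison. unc-77 (chromosome IV, 6157310 to 6183857) had 10.2, 12.0 and 12.2 CPM per kb in hrde-1 and 13.4, 11.2 and 12.2 in hrde-2 mutants, all above its wild-type libraries (10.2, 7.87 and 9.62, as above), though the highest wild-type and lowest hrde-1 values were nearly equal. Its log2 fold changes were 0.28 ± 0.13 and 0.37 ± 0.13 (SE, edgeR adjusted p 0.396 and 0.261), while its channel partner unc-80 had values in the opposite direction.

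Axonal transport genes were among those with higher values. unc-14 (chromosome I, 7122614 to 7128423), a partner of the unc-51 kinase that links cargo to kinesin, had 17.5, 21.1 and 20.0 CPM per kb in wild-type, 26.7, 22.7 and 25.5 in hrde-1 and 20.8, 20.0 and 20.5 in hrde-2 mutants. The log2 fold change in hrde-1 mutants was 0.37 ± 0.13, that in hrde-2 mutants 0.083 ± 0.13, and that between hrde-2 and hrde-1 mutants -0.29 ± 0.12 (SE, edgeR adjusted p 0.202, 0.903 and 0.675). unc-116 had 19.8, 22.1 and 20.4 CPM per kb in wild-type, 24.1, 25.9 and 25.4 in hrde-1 and 20.4, 22.6 and 26.01 in hrde-2 mutants, with log2 fold changes of 0.29 ± 0.12 and 0.16 ± 0.12 (SE, edgeR adjusted p 0.356 and 0.753). unc-16 (the JIP3 adaptor) was close to 12.1 to 12.4 in all wild-type libraries, against 14.2, 13.3 and 14.2 in hrde-1 and 14.01, 15.6 and 14.98 in hrde-2 mutants, with log2 fold changes of 0.18 ± 0.12 and 0.28 ± 0.12 (SE, edgeR adjusted p 0.641 and 0.47). Only at unc-116 in hrde-2 mutants and unc-14 in hrde-2 mutants did these 3 genes overlap with wild-type. unc-32, a subunit of the vacuolar proton pump, had 16.3, 17.4 and 15.9 CPM per kb in wild-type and 21.5, 21.4 and 19.5 in hrde-2 mutants, which did not overlap, and the edgeR log2 fold change was 0.34 ± 0.12 (SE, adjusted p 0.296).

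**Figure D5:**
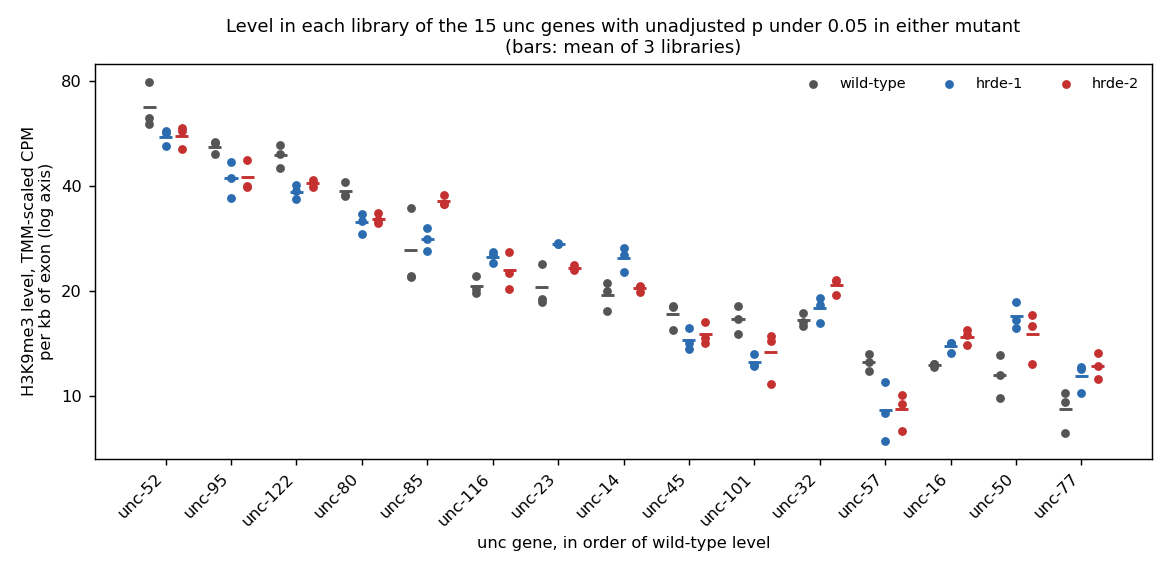
H3K9me3 level (TMM-scaled CPM per kb of exon, log axis) in each of the 9 libraries for the 15 unc genes with unadjusted p under 0.05 in either mutant, with bars for the mean of 3 libraries. At unc-52, unc-95, unc-122 and unc-80 the mutant points lie below the wild-type points, and at unc-85 the hrde-2 points (35.6 to 37.7) lie above all others.

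The medians of the groups by role lay near 0 for most groups. The 18 sarcomere genes had median log2 fold changes of 0.041 for hrde-1 and 0.037 for hrde-2, with 12 and 10 genes above 0, where 50.8% and 50.6% of all genes tested were above 0. The medians for hrde-1 and hrde-2, in that order, were -0.035 and 0.046 for the 11 vesicle cycle genes, -0.0070 and -0.012 for the 9 transmitter genes, 0.058 and 0.012 for the 15 guidance genes, -0.042 and 0.043 for the 10 transcription factor genes, and -0.030 and 0.030 for the 13 channel genes. None of the transcription factor or guidance genes reached an unadjusted p of 0.05 in any comparison. Of all genes 11% did so for hrde-1, 9.3% for hrde-2 and 6.44% between the mutants. The 4 axonal transport genes had 0.23 and 0.13, with 3 and 4 of 4 above 0, and the 5 genes of the nucleus, chromatin and division 0.029 and 0.19. The median over all genes tested was 0.0054 for hrde-1 and 0.0039 for hrde-2.

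Where the unadjusted p was under 0.05, unc genes with lower values lay in the outer parts of the autosomes in both mutants, and most of those with higher values lay in the middle parts in hrde-1 mutants but not in hrde-2 mutants. All 7 unc genes lower in hrde-1 mutants were outer autosomal genes, 14.3% of 49, and 4 of the 5 higher ones lay in the middle part, 14.8% of 27. Over all genes tested, 9.74% of the outer and 1.38% of the middle autosomal genes were lower at that threshold in hrde-1 mutants, and 3.02% and 7.74% were higher. In hrde-2 mutants, 6 outer (12.2%) and 0 middle autosomal unc genes were lower, where 6.82% and 1.74% of all such genes were. Of the higher ones 3 were outer (6.12%, against 3.71% of all outer genes) and 2 middle (7.41%, against 6.63% of all middle genes), so these shares were alike. For hrde-2 the middle autosomal unc genes had a median log2 fold change of 0.089, with 23 of 27 above 0 (85.2%). Over all middle autosomal genes the median was 0.073, with 62.9% above 0. The outer unc genes had -0.013 with 21 of 49 above 0 (42.9%), near the 45.6% of all outer genes. For hrde-1 the middle unc genes had 0.017 with 16 of 27 above 0 (59.3%), against 0.091 and 65.2% over all middle genes. The outer unc genes had 0.028 with 26 of 49 above 0 (53.1%), against 42.6% of all outer genes. The 16 genes on X had medians of 0.0095 for hrde-1 and 0.053 for hrde-2, with 10 of 16 above 0 for each, and none reached an unadjusted p of 0.05. Over all X genes tested the medians were -0.0092 and -0.041, with 48.7% and 43.2% above 0. At that threshold 5.46% of these were lower and 3.2% higher for hrde-1, and 6.32% lower and 1.08% higher for hrde-2. By GC content, the 31 unc genes lowest in GC had a median of 0.089 for hrde-2 and the 31 highest -0.00077, and for hrde-1 the order was the opposite, with -0.0048 for the lowest and 0.050 for the highest. The part of base composition in these values was not tested.

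Counted by libraries that did not overlap, 10 unc genes lay higher and 10 lower than wild-type in the hrde-1 libraries, 10.9% each, where 8.13% and 7.5% of all genes were. In hrde-2 mutants 9 were higher and 10 lower, 9.78% and 10.9%, against 7.13% and 6.47%. Between hrde-2 and hrde-1 mutants 5 were higher and 8 lower, 5.43% and 8.70%, against 7.12% and 6.86%.

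The direction for the unc genes as a whole depended on the scaling. The unc genes took 1.07%, 1.07% and 1.01% of all counts in the wild-type, 1.02%, 1.13% and 1.03% in the hrde-1 and 1.08%, 1.14% and 1.10% in the hrde-2 H3K9me3 libraries. The hrde-2 share was higher by 0.054 percentage points (p = 0.1, exact two-sided permutation test, the smallest it can give), without overlap, and the hrde-1 share by 0.0104 (p = 0.8). With rRNA and mitochondrial genes left out of the total, the hrde-2 difference was -0.00769 percentage points (p = 0.9, exact permutation test), as the rRNA share was 15.8%, 13.2% and 16.5% in hrde-2 and 16.9%, 17.2% and 24.6% in wild-type libraries. Scaled by total counts alone, the median log2 fold change of the unc genes in hrde-2 mutants was 0.14, with 70 of 92 above 0, and the median of all genes tested was 0.10. Under that scaling 8 unc genes were higher and 0 lower at an unadjusted p under 0.05, in place of 5 and 6. Of all 28691 genes, 2330 were higher and 587 lower there. No unc gene passed the adjusted threshold.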

How the data were processed

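The deposited values were counts, without normalization by the authors. Per the file headers and the methods, the authors aligned paired reads to the WS258 genome with bowtie2 2.5.0 and counted fragments on the exons of each gene with featureCounts 2.0.1, without strand. Removal of duplicate fragments is not stated. Fragments in introns were not counted, and overlapping genes cannot be separated (58 of the 92 unc genes overlap no other gene's exons, and the largest overlap was 10.8% of exon length, at unc-103). Symbols came from Ensembl release 115 by gene ID. Coordinates are those of the files. Sequence and GC content were read from WBcel235, in which 92.8% of 1173 introns between the listed exons of the unc genes had GT or GC at the start and AG at the end.

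All 9 H3K9me3 libraries entered one fit of edgeR 4.0.16 (quasi-likelihood F-test, TMM) in R 4.3.3 after filterByExpr (minimum count 10), which kept 28691 genes. P-values were adjusted over all of them by the Benjamini-Hochberg method. The IgG libraries, 1 per genotype, stayed out of the fit. The code was tested on simulated data. Exact permutation tests used SciPy 1.17.1. Alternatives were RLE scaling, total counts alone, no filter, DESeq2 1.42.0, a replicate block, only the 6 libraries compared, no rRNA or mitochondrial genes, and leaving out each library. A count of 0 was taken to allow up to 3 counts. The labels give no batch or date.

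Genes named in the text were those with an unadjusted p under 0.05 in a mutant against wild-type (up to 6 with the highest and up to 6 with the lowest fold change), the 6 highest and 6 lowest by wild-type level, and a list of 28 well known unc genes, with others named as stated. The members, role groups and lists were chosen with earlier results of these data known. unc-74, on the list of transmitter genes, was not analysed here.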

Additional observations from a re-analysis of the deposited data

How the results depend on the processing

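The count of unc genes called (0 in each of the 3 comparisons) was the same under RLE scaling, total counts alone, no filter, DESeq2, only the 6 libraries compared, and without rRNA and mitochondrial genes. Leaving out 1 library gave 0 to 1 in hrde-1 mutants (1 without wild-type replicate 3, unc-23), 0 to 1 in hrde-2 mutants (1 without wild-type replicate 2, unc-85) and 0 between the mutants. With a replicate block the count was 0 in each comparison. Same-numbered libraries correlated between -0.0486 and 0.116 in their deviations from the group means, so the numbers were not taken to pair them. The counts at an unadjusted p under 0.05 depended on single libraries. In hrde-1 mutants there were 12, against 7 without wild-type replicate 1, 7 without hrde-1 replicate 3 and 17 (13 higher, 4 lower) without wild-type replicate 3. Over all genes there were 3160 of 28691, against 3201 of 29124, 2307 of 29233 and 3760 of 29271 (1953 higher, 1807 lower), in that order. In hrde-2 mutants there were 11, against 5 without hrde-2 replicate 1 and 7 without hrde-2 replicate 2. Without wild-type replicate 3 the 9 were 7 higher and 2 lower. Over all genes there were 2669 of 28691, against 2289 of 29219, 2188 of 29196 and 2883 of 29271 (1556 higher, 1327 lower), in that order. Between the mutants there were 2, against 5 without hrde-2 replicate 3 and 7 with only the 6 libraries compared. Over all genes there were 1849 of 28691, against 1827 of 29310 and 2513 of 28143, in that order.

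The differences in the share of counts and in the X to autosome ratio changed sign most. Leaving out 1 library moved the hrde-1 share difference between -0.0223 and 0.0298 percentage points and the hrde-2 share difference between 0.0334 and 0.0678. The latter was -0.00769 without rRNA and mitochondrial genes and -0.0153 as TMM-scaled CPM. The X to autosome log2 ratio minus that of wild-type ran between -0.044 and 0.0045 for hrde-1 and between -0.042 and 0.021 for hrde-2 when 1 library was left out, and was 0.046 for hrde-2 with summed counts. The wild-type ratio was 0.41 to 0.46 when 1 library was left out, -0.0033 with summed counts, 0.59 against middle and 0.19 against outer autosomal genes, both chosen after the data were seen. The log2 share of H3K9me3 over IgG was 0.11 in wild-type, -0.084 in hrde-1 and -0.091 in hrde-2 mutants without rRNA and mitochondrial genes, and 0.38, 0.010 and 0.28 without the 5 unc genes with the most counts. The cause of these changes was not tested. The log2 fold changes against wild-type that had an unadjusted p under 0.05, other than that of unc-45, kept their direction under all 16 alternatives run. Those of unc-45 in both mutants, unc-14 and unc-116 in hrde-2 mutants, unc-16 in hrde-1 mutants, and unc-85 and unc-14 between the mutants were not summarised by gene. Of the other values under the 16 alternatives, 350 stayed on the same side of the threshold and 2, at unc-23 and unc-85, passed it. Depth limited the IgG libraries most, where the median unc gene had 11, 2 and 0 counts in the 3 libraries of wild-type, hrde-1 and hrde-2.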

Other observations

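Some unc genes varied between wild-type libraries far more than the median unc gene. unc-71, an ADAM metalloprotease of axon guidance, had 17.9, 11.4 and 26.3 CPM per kb of H3K9me3 in wild-type replicates 1, 2 and 3, and unc-75, a CELF splicing factor, had 14.7, 8.38 and 17.2. unc-97, the PINCH protein of muscle attachment, had 16.8, 28.9 and 16.9, and unc-29 had 11.7, 14.8 and 6.60. In each of these the shallowest library, wild-type replicate 2, or the library with the most rRNA, replicate 3, was the one farthest from the others. These are 2 of only 3 libraries, and the part of depth and rRNA was not tested. These genes were picked after their values were seen.

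unc-69, a coiled-coil protein of axon outgrowth, had 15 counts in the wild-type IgG library on 941 bases of exon, which is 116.3 CPM per kb (70.5 to 192, Wilson 95% interval), and its ratio of H3K9me3 to IgG was 0.221 in wild-type. unc-37, with 22 IgG counts, had 76.9 CPM per kb (50.8 to 116.4) and a ratio of 0.290. Of the lists of other genes, 17 muscle genes had a median wild-type H3K9me3 level of 27.8 CPM per kb. The 18 neuron genes had 19.8, the 15 germline genes 22.9 and the 10 intestine genes 52.5. In median level the sarcomere unc genes (31.1) lay near the other muscle genes, and all unc genes (22.7) near the germline genes. These 4 lists also differed in median exon GC content, with 45.7%, 42.5%, 44.1% and 47.4% in that order. Summed over genes, with rRNA and mitochondrial genes left out, they had 40.7, 33.98, 40.4 and 62.2 CPM per kb in wild-type IgG. Wild-type H3K9me3 on that scale was 39.6, 31.1, 30.4 and 68.2. The part of GC content and background in the likeness of these medians was not tested.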
